A study of Mus musculus with 15 samples.

Results

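The hairpins mmu-mir-10a, mmu-mir-10b and mmu-mir-196b (written without the prefix mmu- from here on) are the precursors of microRNAs encoded inside the Hox gene clusters, and they were read here as 3 of the 1226 hairpins of a small RNA sequencing table from mouse embryos that lack or carry miR-302. They were taken by name, across all 15 libraries. A microRNA is a short RNA that pairs with messenger RNAs, mainly through its seed (bases 2 to 8 from the 5′ end), and lowers their output. Hox genes pattern the body from head to tail, and their clusters are switched on in order, from the posterior part of the gastrulating embryo onward. As background, the neural crest that forms the skeleton of the face arises mostly in front of the Hox domain, whereas crest of the hindbrain and trunk expresses Hox genes according to its level. miR-10 and miR-196 follow the expression of their neighbouring Hox genes and also target Hox messenger RNAs: miR-196 directs cleavage of Hoxb8 RNA in the mouse, and miR-10 represses Hoxb1a and Hoxb3a in zebrafish.

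The groups were miR-302 knockout (KO) and wild type (WT) at each of 3 stages, all in the C57BL/6 strain. The E7.5 samples (embryonic day 7.5) were whole embryos, with 2 KO and 2 WT libraries. The E8.5 samples were cells sorted as positive for Wnt1-Cre, a Cre driver active in the dorsal neural tube and the crest that leaves it, with 4 KO and 3 WT libraries. At E9.5 the sort took Sox10-positive cells, Sox10 being a transcription factor of migrating crest, with 2 KO and 2 WT libraries. Stage and cell source changed together and cannot be told apart. The labels give neither the KO allele nor the axial level, cranial or trunk, from which the sorted cells came, and do not name the litters behind the libraries. A p-value here therefore reflects the scatter among the libraries as given, part of which may be technical.

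The values are normalized counts: the authors' reads per hairpin, divided by 1 size factor per library. Depth ran from 1706 reads in E8.5 KO replicate 3 to 323389 reads in E9.5 WT replicate 1, and 1 read was worth between 0.147 and 19.3 normalized counts. The floor of 3 reads in E8.5 KO replicate 3 was therefore 58.0 normalized counts, above every other E8.5 value of the 3 hairpins, and that library cannot show them at such levels. The sum of miR-302a to miR-302d, the targeted microRNAs, was 13.2 to 31.0 in E7.5 KO and 4001 to 14226 in E7.5 WT. It was 0 to 19.3 in E8.5 KO and 3875 to 6522 in E8.5 WT. At E9.5 it was 75.4 to 148 in the libraries labelled KO against 338 to 466 in WT, and none of the 4 hairpins passed the test there, so at E9.5 the genotypes are given as labelled. The E7.5 WT libraries differed from each other, for example in the let-7 family, whose sum was 13098 in replicate 1 and 3271 in replicate 2.

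The mature sequences show which members could be mistaken for each other and which other microRNAs have the same seed or a part of it. The 5p arm is shown, the arm that is usually the more abundant for these hairpins. The sequences are from RefSeq on GRCm38, read 5′ to 3′, with the seed in capitals.
miR-10a-5p: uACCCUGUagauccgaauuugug
miR-10b-5p: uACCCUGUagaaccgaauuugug
miR-196b-5p: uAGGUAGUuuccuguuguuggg
miR-196a-5p: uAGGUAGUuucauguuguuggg
miR-100-5p: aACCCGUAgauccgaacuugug
let-7a-5p: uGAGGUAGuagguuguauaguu
miR-10a-5p and miR-10b-5p have the same seed and differ by the single substitution U12A, with positions counted from the 5′ end and miR-10a first. miR-196a-5p and miR-196b-5p likewise share their seed and differ by A12C, with miR-196a first. Reads of these pairs can be told apart only where they cover base 12, and the counting tool is not given in the sources used here, so the split between mir-10a and mir-10b, and between mir-196a and mir-196b, is uncertain to that extent. miR-100-5p, a relative of miR-10a, shares an 11-base run with it (bases 7 to 17 of miR-10a, bases 6 to 16 of miR-100) but has another seed. The seed of miR-196b-5p also occurs in let-7a-5p, 1 base further in, at bases 3 to 9. All entries for mature arms in the table were 0, so every value below is for a whole hairpin, with the arms together.

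The 3 hairpins lie in 3 Hox clusters. Mir10a is at chr11:96317165-96317274 of GRCm38 on the plus strand, in the Hoxb cluster, 993 bases before Hoxb4, and no transcript of another gene in the GENCODE annotation overlaps it. Mir10b is at chr2:74726070-74726137 on the plus strand, within introns of 2 Hoxd4 transcripts and 1 Hoxd3 transcript. Mir196b is at chr6:52230081-52230165 on the minus strand, in an exon of 2 Hoxa9 transcripts and an intron of 1 other, 1032 bases from Hoxa10. Hoxb4 and Hoxd4 belong to the same paralogue group, expressed from the hindbrain backward, while Hoxa9 is a gene of the trunk.

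Across the 6 groups, the highest value of each of the 3 hairpins was in an E7.5 WT library, and the E7.5 WT mean was the highest of the normalized counts. On the log2(normalized count + 1) scale the mean of mir-10b was higher in E7.5 KO (8.19) than in E7.5 WT (8.03), and without E7.5 WT replicate 1 both mir-10b and mir-196b were higher in KO. Together they made up 0.544% and 0.861% of all reads in E7.5 KO and 1.72% and 0.343% in E7.5 WT. In the E8.5 sorted cells the share was 0.0937%, 0.0499%, 0 and 0.174% in KO, against 0.00817%, 0.0152% and 0.00612% in WT. In the E9.5 sorted cells it was 0.154% and 0.0827% in KO, against 0.0161% and 0.0512% in WT. These shares place the sorted cells of either genotype below the embryos in every library.

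mir-10a had 33.4 and 67.9 normalized counts in E7.5 KO, against 123.2 and 122.6 in E7.5 WT. It had 25.2, 2.86, 0 and 41.0 in E8.5 KO, against 0, 4.07 and 1.03 in E8.5 WT. It had 69.0 and 43.5 in E9.5 KO, against 5.14 and 21.5 in E9.5 WT. The group means of mir-10a ran, from the highest, E7.5 WT (122.9 ± 0.431), E9.5 KO (56.2 ± 17.99), E7.5 KO (50.7 ± 24.5), E8.5 KO (17.3 ± 19.4), E9.5 WT (13.3 ± 11.6) and E8.5 WT (1.70 ± 2.11; SD, n = 2, 2, 2, 4, 2 and 3). Among neighbours in this order, the ranges of E7.5 WT and E9.5 KO did not overlap, nor did those of E9.5 WT and E8.5 WT, while the other neighbours overlapped. mir-10a thus kept a measurable level in the sorted cells, with 31 reads in E8.5 KO, 16 in E8.5 WT, 62 in E9.5 KO and 104 in E9.5 WT.

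mir-10b had 250.3 and 336.5 normalized counts in E7.5 KO, against 797 and 84.5 in E7.5 WT. It had 11.0, 13.6, 0 and 22.4 in E8.5 KO, against 1.84, 2.37 and 1.80 in E8.5 WT. It had 17.6 and 11.6 in E9.5 KO, against 2.50 and 0.312 in E9.5 WT. The order of its group means was E7.5 WT (441 ± 504), E7.5 KO (293 ± 60.9), E9.5 KO (14.6 ± 4.24), E8.5 KO (11.8 ± 9.22), E8.5 WT (2.003 ± 0.319) and E9.5 WT (1.41 ± 1.55), with SD and n as for mir-10a. The only gap between neighbours without overlap was the one between the E7.5 embryos and the sorted cells. The E7.5 WT libraries themselves were 9.43-fold apart.

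mir-196b was read mainly in the E7.5 embryos, with 28.6 and 89.9 normalized counts in E7.5 KO, against 274 and 31.8 in E7.5 WT. In the 11 libraries of sorted cells it had 5 reads in all. These were 1 read in E8.5 KO replicate 1, 1 in E8.5 WT replicate 1, and 2 and 1 in E9.5 KO, whose levels were 2.93 and 2.90 normalized counts, with 0 in both E9.5 WT libraries. mir-196b reached 10 normalized counts in 4 libraries, all of E7.5, so it entered the test only through that stage, whereas mir-10a and mir-10b each reached it in 9 libraries. The exact 95% counting intervals of the 0 counts reached 0.542 normalized counts in E9.5 WT replicate 1 and 1.15 in replicate 2. Those of the E9.5 KO levels began at 0.355 and 0.0734. Library by library these intervals overlap, but that does not compare the groups, and the pooled reads of the E9.5 groups were not tested for counting error.

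**Figure D1:**
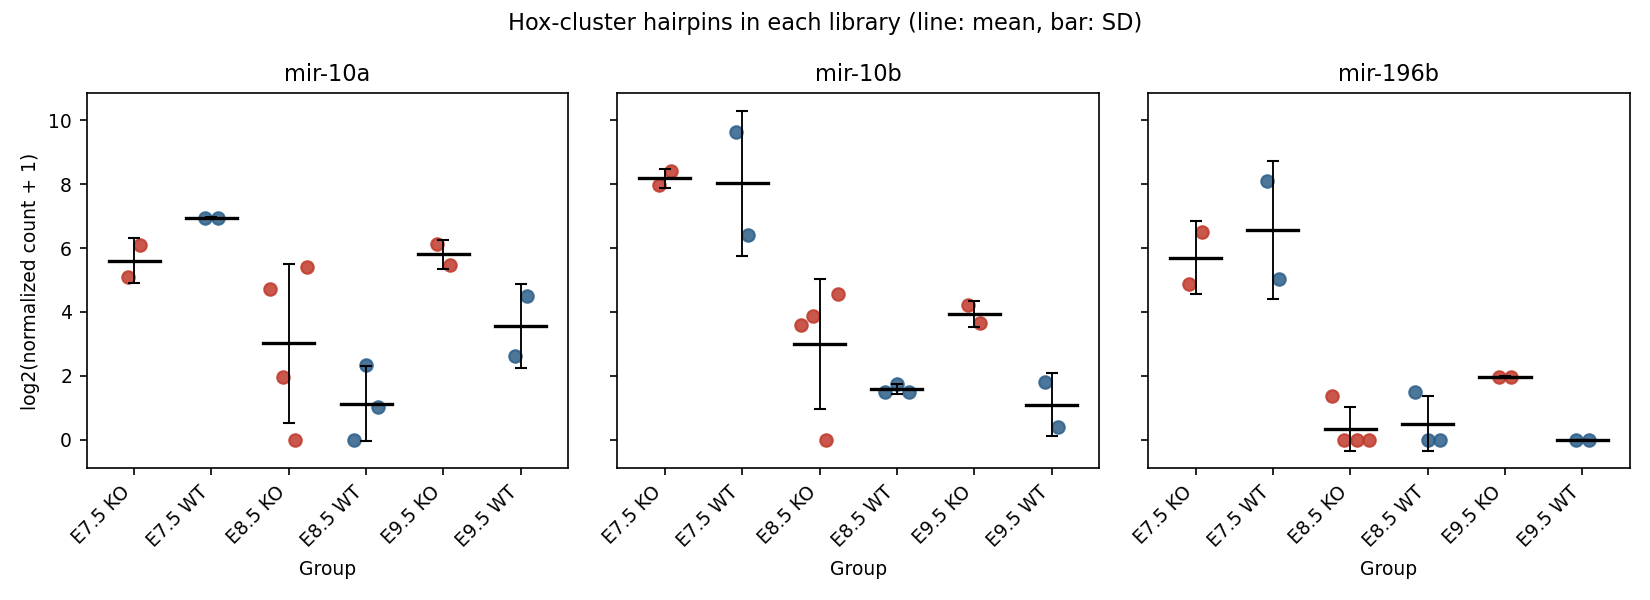
Level of mir-10a, mir-10b and mir-196b on a log2(normalized count + 1) scale in each library (points; red KO, blue WT), by stage and genotype, with the group mean (line) and SD (bar) on that scale. The highest library of each hairpin is an E7.5 WT library, and mir-196b had at most 2 reads in any library of E8.5 or E9.5.

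The first comparison asked how the hairpins differed between E8.5 Wnt1-Cre cells and E7.5 embryos. In WT, all 3 fell, and they were among the 4 lowest log2 fold changes of the 299 hairpins tested: mir-10b ranked 1, mir-196b 3 and mir-10a 4 from the lowest. Fold changes were fitted with limma on log2(normalized count + 1), a scale that understates changes of hairpins near 0, with p-values adjusted by Benjamini-Hochberg over the 299 hairpins and called below 0.05. The log2 fold change of mir-10b was -6.45 ± 1.25 (SE; limma adjusted p = 0.00170), that of mir-196b was -6.07 ± 0.887 (adjusted p = 1.59e-04) and that of mir-10a was -5.83 ± 1.36 (adjusted p = 0.00578). Called and lower in this comparison were 17.1% of all tested hairpins, and 38.8% were lower with no overlap between the groups, as all 3 were. The median of all tested hairpins was -0.48. Because mir-196b entered the test only through the E7.5 libraries, the filter favoured a fall from that stage. Its rank and p-value are therefore no independent support for a fall.
The mean at E8.5 was 72.4-fold lower for mir-10a (1.70 against 122.9) and 220.0-fold lower for mir-10b (2.003 against 441). For mir-196b the mean was 249.6-fold lower (0.613 against 152.9), on 1 read in E8.5 WT against 614 in E7.5 WT. Its level pooled over libraries, which weights them by depth, was 974-fold lower, with an exact 95% interval of 174 to 38516 that covers counting error only. This pooled value is another measure than the ratios of means. Without E7.5 WT replicate 1, the adjusted p was 0.0539 for both mir-10a (log2 fold change -5.83) and mir-10b (-4.84), while mir-196b was still called at -4.54 (adjusted p = 0.00280). Of the 614 reads of mir-196b in E7.5 WT, 527 were in that library. In these bulk samples, fewer cells that contain a microRNA and less of it per cell cannot be told apart, and the whole E7.5 embryo holds cell types that the sort removes.

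In KO, mir-10b and mir-196b fell at the same step. The log2 fold change was -5.19 ± 1.18 for mir-10b (limma adjusted p = 0.00389) and -5.36 ± 0.84 for mir-196b (adjusted p = 2.16e-04). Of all tested hairpins 20.7% were called and lower here, and 27.8% were lower with no overlap. As in WT, the filter favoured a fall of mir-196b, so its p-value in KO is no independent support. The fall of mir-10b was 24.96-fold in means, 11.8 against 293. The KO pools held 1 read of mir-196b at E8.5 against 94 at E7.5, a pooled level 166-fold lower, with a counting interval of 29.1 to 6628. In means, mir-196b was 150.2-fold lower. mir-10a did not pass, with a log2 fold change of -2.59 ± 1.29 (adjusted p = 0.148; 95% interval -5.37 to 0.19), and E8.5 KO replicate 4, at 41.0, lay above E7.5 KO replicate 1, at 33.4. These KO and WT values are given side by side; the F test of the KO effect over the stages, given further on, addresses jointly whether they differ.

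The next step set E9.5 Sox10 cells against E8.5 Wnt1-Cre cells. No member passed limma's test in either genotype, nor edgeR's or DESeq2's; at an unadjusted p below 0.05, limma had 1 of the 3 in KO and 0 in WT, whereas edgeR and DESeq2 each had 0 in KO and 1 in WT. Of all 299 tested hairpins, limma had 118 in KO and 43 in WT at that unadjusted threshold, edgeR 115 and 62, and DESeq2 119 and 68. At an adjusted p below 0.05, limma called 27.1% of them in KO and 3.01% in WT. mir-10a was higher at E9.5 with no overlap in both genotypes, and mir-196b in KO, as were 27.1% of tested hairpins in KO and 28.1% in WT. The log2 fold change of mir-10a was 2.79 ± 1.29 in KO (limma adjusted p = 0.126; 95% interval 0.0053 to 5.57) and 2.44 ± 1.36 in WT (adjusted p = 0.431; interval -0.50 to 5.37). In KO the adjusted p for mir-10a was 0.0420 without E8.5 KO replicate 4. mir-10b gave 0.94 ± 1.18 in KO (adjusted p = 0.591) and -0.48 ± 1.25 in WT (adjusted p = 0.945). mir-196b gave 1.63 ± 0.84 in KO (adjusted p = 0.170), which rests on 3 reads at E9.5 against 1 at E8.5, a pooled ratio of 6.88 with a counting interval of 0.552 to 361. In WT it gave -0.50 ± 0.89 (adjusted p = 0.895), on 0 reads at E9.5 against 1 at E8.5.

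KO was then compared with WT at each stage. No member passed limma's test at any stage. At an unadjusted p below 0.05, limma had 0 of the 3 at each stage, while edgeR had 0 at E7.5, 2 at E8.5 and 3 at E9.5, as did DESeq2. Of all 299 tested hairpins, limma had 28, 25 and 51 below it at E7.5, E8.5 and E9.5. edgeR had 23, 33 and 85, and DESeq2 had 26, 35 and 90. At an adjusted p below 0.05, limma called 2.68% of all tested hairpins at E7.5, 2.01% at E8.5 and 0.669% at E9.5. At E7.5, mir-10a was lower in both KO embryos than in both WT embryos, as were 20.4% of tested hairpins with no overlap. Its log2 fold change was -1.35 ± 1.495 (limma adjusted p = 0.989; 95% interval -4.56 to 1.87). mir-10b (0.16 ± 1.37, adjusted p = 1) and mir-196b (-0.87 ± 0.97, adjusted p = 0.989) overlapped: both KO values of mir-10b and 1 of mir-196b lay between the WT values.

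The E7.5 WT libraries bear on these values. mir-10a was 1.005-fold apart in them, mir-10b 9.43-fold and mir-196b 8.60-fold, and for each the higher library was replicate 1. Over the same pair, replicate 1 against replicate 2, the sum of the vascular list (miR-126, miR-143 and miR-145) was 952 against 208, the neural list 363 against 201, the mesenchymal list 184 against 73.9, and the epithelial list 544 against 1026. The pluripotency list, miR-302 included, was 7020 against 20267. The muscle list was 52.5 against 11.0, and the endoderm and liver list 218 against 173. In E7.5 KO the vascular sum was 1268 and 1426. The part of these lists in the spread of mir-10b and mir-196b was not tested. The 6 blood hairpins summed to 2.38 and 12.1 in E7.5 KO, against 4.68 and 9.15 in E7.5 WT. Of them, mir-451a, mir-486a, mir-486b and mir-142a had 0 reads in all 4 E7.5 libraries.

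At E8.5, the KO mean was 10.2-fold the WT mean for mir-10a (17.3 ± 19.4 against 1.70 ± 2.11) and 5.87-fold for mir-10b (11.8 ± 9.22 against 2.003 ± 0.319; SD, n = 4 and 3), and the groups overlapped for both. KO replicates 1, 2 and 4 each exceeded all WT libraries for mir-10b, and replicates 1 and 4 did so for mir-10a, while KO replicate 3 had 0 reads of both. The log2 fold change was 1.89 ± 1.14 for mir-10a (limma adjusted p = 0.594; 95% interval -0.56 to 4.35) and 1.42 ± 1.04 for mir-10b (adjusted p = 0.657; interval -0.82 to 3.66). Without KO replicate 3 it was 2.90 ± 0.90 and 2.42 ± 0.75, each with an adjusted p of 0.207.
On recovered reads, DESeq2 gave 3.22 ± 0.94 for mir-10a (adjusted p = 0.0261) and 2.75 ± 0.89 for mir-10b (adjusted p = 0.0481), and in this direction it called 2.68% of tested hairpins. edgeR's quasi-likelihood test gave 3.12 and 2.72, with an adjusted p of 0.113 for both. KO replicate 4 and WT replicate 2, which share a code in the labels whose meaning is not given, had 41.0 against 4.07 normalized counts of mir-10a and 22.4 against 2.37 of mir-10b. No other E8.5 code holds both genotypes, so within-code values at this stage rest on 1 KO and 1 WT library and give no test. KO replicates 2 and 3 share another code. The let-7 sum was 1647, 55.7, 38.7 and 1261 in E8.5 KO replicates 1 to 4, against 516, 552 and 595 in WT. mir-10a was likewise higher in KO replicates 1 and 4 than in replicate 2. The 0 of mir-10a in replicate 3 has an exact 95% interval up to 71.3 normalized counts, so it cannot be placed as high or low. The part of this split in the KO values was not tested.

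At E9.5, all 3 hairpins were higher in both libraries labelled KO than in both WT libraries, as were 35.5% of all tested hairpins. mir-10b was 10.4-fold higher in means (14.6 ± 4.24 against 1.41 ± 1.55; SD, n = 2 each), with a log2 fold change of 2.84 ± 1.37 (limma adjusted p = 0.288; 95% interval -0.10 to 5.78). It was 2.13 without WT replicate 2 and 3.54 without WT replicate 1. mir-10a was 4.22-fold higher in means (56.2 ± 17.99 against 13.3 ± 11.6), with 2.25 ± 1.495 (adjusted p = 0.398; interval -0.97 to 5.46), or 3.18 without WT replicate 2 and 1.31 without WT replicate 1. TMM scaling, which moved the median of all tested hairpins by -0.86, gave 1.17 for mir-10a and 2.02 for mir-10b. mir-196b had 3 reads in KO against 0 in WT, so its fitted difference of 1.97 ± 0.97 (adjusted p = 0.288) depends on the pseudocount and is neither a fold nor a bound. DESeq2 called mir-10b (3.29, adjusted p = 0.0271) and mir-196b (fitted value 6.21, adjusted p = 0.0347, on those same 3 reads and likewise no bound) but not mir-10a (2.10, adjusted p = 0.149), and in this direction it called 13.7% of tested hairpins. edgeR called none of the 3, with adjusted p-values of 0.0681 for mir-10b, 0.0847 for mir-196b and 0.155 for mir-10a. The KO and WT libraries of this stage carry different label codes, so code and genotype cannot be told apart.

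Marker lists of other cell types also differed between the E9.5 groups, except the muscle list, whose groups overlapped. The 10 neural hairpins summed to 780 and 1642 in KO, against 206 and 307 in WT. The 5 vascular hairpins, of which mir-126b and mir-145b had 0 reads, summed to 377 and 806 in KO, against 200 and 159 in WT. The 6 endoderm and liver hairpins summed to 763 and 2361 in KO, against 152 and 326 in WT. Epithelial hairpins summed to 194 and 128 in KO, against 26.9 and 29.0 in WT, and let-7 hairpins to 8029 and 14011 in KO, against 831 and 2030 in WT. The 5 mesenchymal hairpins were lower, at 747 and 676 in KO against 1779 and 1630 in WT. So were the pluripotency hairpins, miR-302 included, at 175 and 78.3 in KO against 388 and 504 in WT. Muscle hairpins summed to 57.2 and 60.9 in KO, against 6.61 and 59.3 in WT. The median log2 fold change was 2.25 for the 3 hairpins, 2.19 for the neural list, of which 9 of 10 members were above 0, 2.50 for the endoderm and liver list and 2.89 for let-7, of which 12 of 12 tested members were above 0, beside 0.02 for all tested hairpins, and no member of these lists was called by limma. Of the 7 epithelial hairpins 1 was called, and it was higher in KO. The 6 blood hairpins summed to 14.7 and 8.70 in KO, against 7.79 and 6.86 in WT. Of them, mir-451a, mir-486b and mir-142a had 0 reads in both groups. The part of these cell types, and of the axial level sampled, in the higher values of the Hox-cluster hairpins was not tested.

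For mir-10a the KO libraries were below WT at E7.5 and above it at E9.5. An F test of whether the KO effect differed between the 3 stages gave adjusted p-values of 0.471 for mir-10a, 0.626 for mir-10b and 0.471 for mir-196b in limma, which called 2.34% of all tested hairpins in this test. The adjusted p was 0.211 for each of the 3 in edgeR and 0.0971, 0.0995 and 0.0995 in DESeq2. Both tools had all 3 at an unadjusted p below 0.05, and limma 0. Of all 299 tested hairpins, edgeR had 55 below it, DESeq2 61 and limma 36. A difference between stages thus did not pass the threshold for any of the 3.

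**Figure D2:**
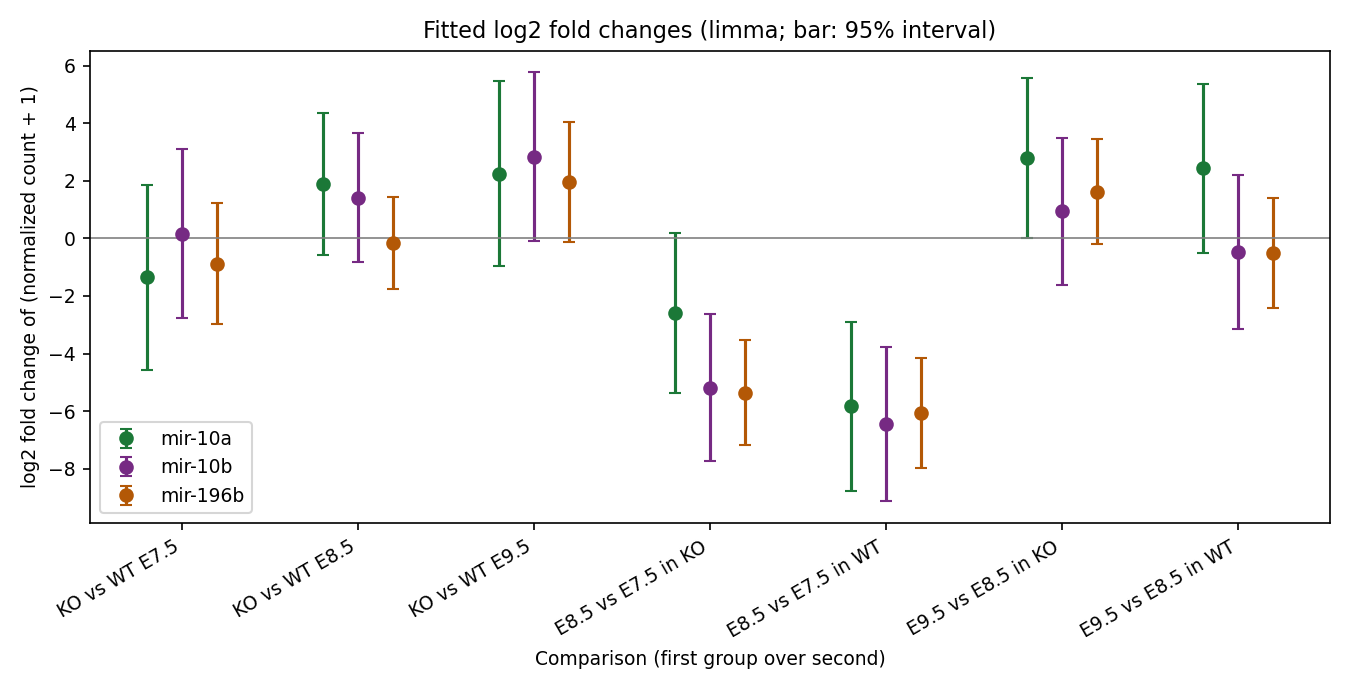
Fitted log2 fold changes of (normalized count + 1), first group over second, with limma's 95% intervals, for the 3 hairpins in 7 comparisons. The intervals of all 3 hairpins lie below 0 for E8.5 against E7.5 in WT, as do those of mir-10b and mir-196b in KO, and each KO against WT interval crosses 0.

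The balance between mir-10a and mir-10b within a library does not depend on scaling, and both 5p microRNAs have 23 bases. mir-10b made up most of the pair's reads in 3 of the 4 E7.5 libraries, and mir-10a made up most of them in all 4 E9.5 libraries. The share of mir-10a was 11.8% (exact 95% interval 6.58 to 18.95) and 16.8% (13.1 to 21.0) in E7.5 KO, against 13.4% (11.8 to 15.1) and 59.2% (55.0 to 63.3) in E7.5 WT. At E9.5 the KO libraries had 79.7% (67.2 to 89.0) and 78.9% (54.4 to 93.9), and the WT libraries 67.3% (52.9 to 79.7) and 98.6% (92.3 to 99.96). These intervals cover counting error only. At E8.5 the counts were few, with 23, 23, 0 and 17 reads of the pair in KO and 1, 19 and 11 in WT; the share was 69.6%, 17.4% and 64.7% in the KO libraries with reads, and 0, 63.2% and 36.4% in WT. Of these, KO replicates 1 (47.1 to 86.8) and 2 (4.95 to 38.8) had intervals that did not overlap. Pooled over libraries it was 15.6% in E7.5 KO and 24.5% in E7.5 WT, 49.2% in E8.5 KO and 51.6% in E8.5 WT, and 79.5% in E9.5 KO and 85.2% in E9.5 WT. No test was run on these shares, and each microRNA may be captured with its own efficiency, so a share is not a ratio of molecules.

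**Figure D3:**
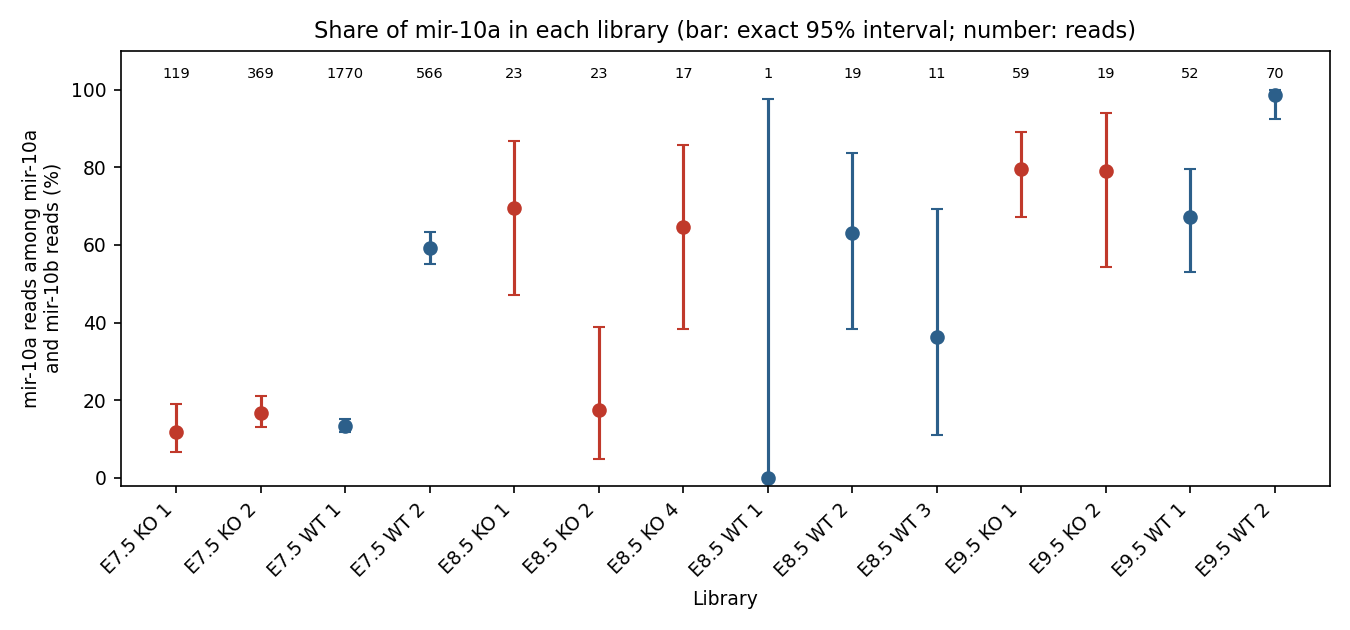
Reads of mir-10a as a percentage of mir-10a and mir-10b reads in each library with at least 1 such read (red KO, blue WT), with exact 95% intervals and the number of reads above. The 4 E9.5 libraries lie between 67.3% and 98.6%, and 3 of the 4 E7.5 libraries between 11.8% and 16.8%.

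The other microRNAs of the Hox clusters were near the limit of detection and did not pass the filter, so they were not tested. mir-196a-1, between Hoxb13 and Hoxb9, had 0 and 5.48 normalized counts in E7.5 KO, against 4.16 and 3.66 in E7.5 WT. mir-196a-2, between Hoxc10 and Hoxc9, had 0 and 6.58 in E7.5 KO, against 15.1 and 1.46 in E7.5 WT. These hairpins give the same mature miR-196a, so their reads cannot be assigned with certainty. Both had 0 reads in all 7 E8.5 libraries. At E9.5, mir-196a-1 had 1 read in KO and 2 in WT, and mir-196a-2 had 0 in KO and 6 in WT. mir-615, a microRNA of the Hoxc cluster, had 2 reads in the whole series. In the authors' deposited clustering, which sorts 413 microRNAs into 7 groups, mir-10a, mir-10b, mir-196b, mir-196a-1 and mir-196a-2 were all in cluster 3, as were 155 microRNAs in all, and mir-615 was not listed.

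The relatives of miR-10 outside the Hox clusters had higher summed normalized counts in every sorted library than the 3 hairpins together. mir-99a, mir-99b and mir-100 encode microRNAs that match the middle of miR-10 with a changed seed. Their sum was 439 and 527 in E7.5 KO, against 816 and 475 in E7.5 WT. It was 174 to 466 in E8.5 KO, against 88.5 to 132 in E8.5 WT, and 754 and 940 in E9.5 KO, against 567 and 425 in E9.5 WT. For E8.5 against E7.5 in WT, mir-99b fell by 3.01 on the log2 scale (SE 0.40) and was called, while mir-99a (-1.81 ± 1.45) and mir-100 (0.86 ± 0.81) were not. None of the 3 was called by limma between KO and WT. For E8.5 against E7.5 in KO, mir-99b changed by -1.20 on the log2 scale (SE 0.38, limma adjusted p = 0.0276) and was called. mir-99a (-1.80, SE 1.38, limma adjusted p = 0.356) and mir-100 (1.45, SE 0.77, limma adjusted p = 0.172) were not called. mir-100 averaged 64.1 ± 50.7 in E8.5 KO and 19.04 ± 6.78 in E7.5 KO (SD, n = 4 and 2), while mir-10b was lower in E8.5 KO than in E7.5 KO.

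Over the 15 libraries, mir-10b and mir-196b varied together (Pearson r = 0.905 on log2(normalized count + 1)), more closely than mir-10a with mir-10b (0.756) or with mir-196b (0.667). The hairpins most like each member were sought among the 88 tested hairpins outside the Hox list with a mean of at least 100. For mir-10a they were all of the let-7 family, microRNAs that accumulate as cells differentiate: let-7g (0.833), let-7b (0.832), let-7i (0.826) and let-7c-2 (0.821). For mir-10b they were mir-669c (0.891), a hairpin of the Sfmbt2 intron, mir-21a (0.891), a microRNA found in most tissues, mir-182 (0.792), which is transcribed together with mir-183, and mir-146b (0.790), whose microRNA dampens innate immune signalling. For mir-196b they were mir-21a (0.905), mir-669c (0.882), mir-146b (0.834) and mir-183 (0.825). These r values describe 15 libraries that share stages, cell sources, size factors and a wide range of depth, and they carry no test. mir-196b passed the filter only through the E7.5 libraries and was near the floor in the sorted cells. Its r values, that with mir-10b included, therefore largely restate this split and are no independent support for a shared pattern.
let-7b, for example, had 1133 and 1372 normalized counts in E9.5 KO, against 60.4 and 220 in E9.5 WT. It had 2.14 in E8.5 KO replicate 2, where mir-10a had 2.86. In E8.5 KO replicate 3 both had 0, but the depth of that library cannot show mir-10a at the levels of the other E8.5 libraries. mir-669c had 715 and 896 in E7.5 KO, against 850 and 492 in E7.5 WT, and at most 29.0 in any sorted library. mir-146b was 1507 in E7.5 WT replicate 1 and 58.6 in replicate 2, apart in the same direction as mir-10b and mir-196b.

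**Figure D4:**
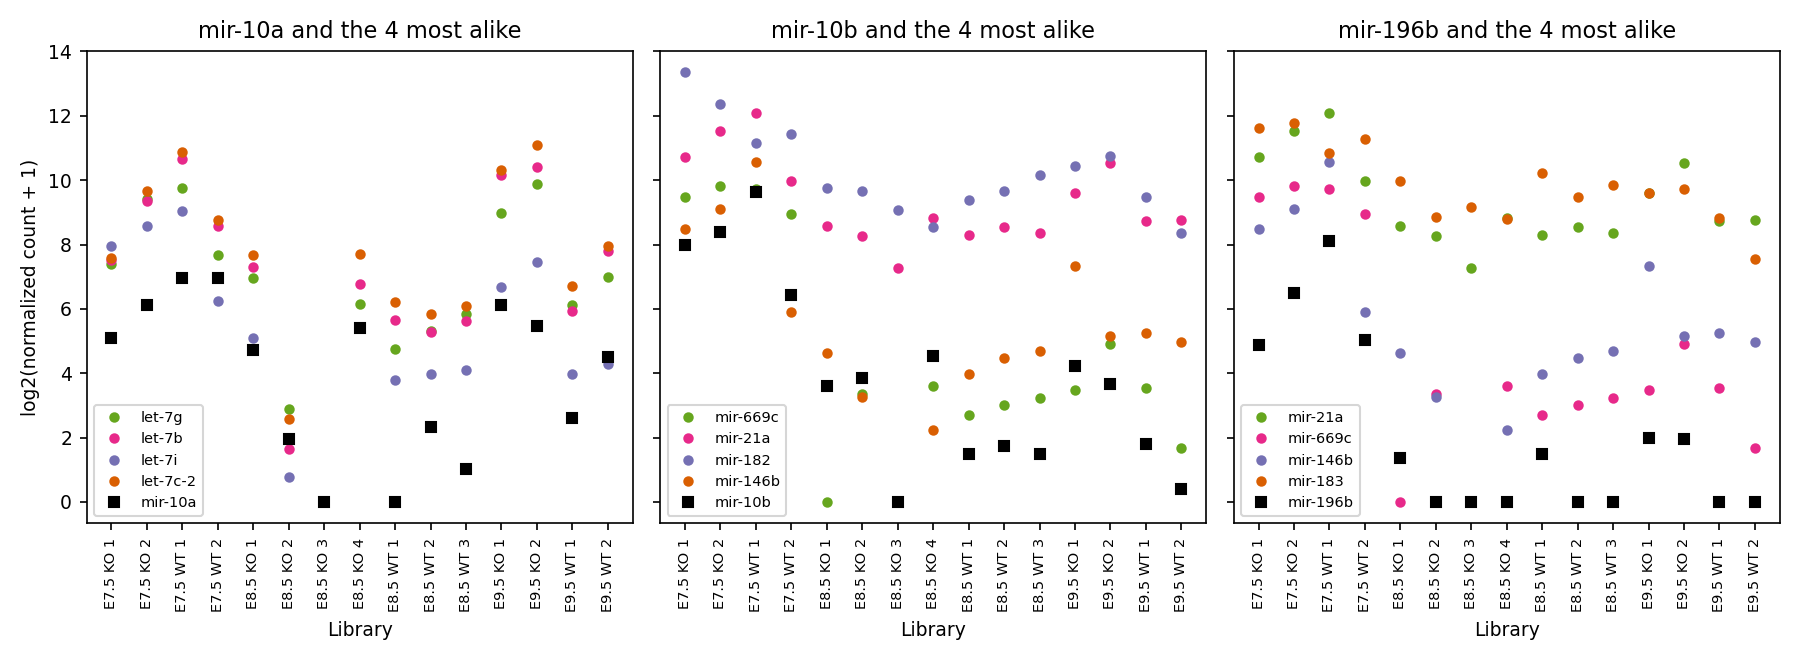
Level on a log2(normalized count + 1) scale in each of the 15 libraries for mir-10a, mir-10b and mir-196b (black squares) and, for each, the 4 hairpins outside the Hox list with the highest Pearson r (coloured points). mir-10a is high at E7.5 and in E9.5 KO, as let-7b, let-7c-2 and let-7g are, and mir-10b and mir-196b are high at E7.5.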

How the data were processed

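Small RNA was isolated from whole embryos or cells sorted into Trizol-LS and turned into NEXTflex Small RNA-Seq v3 libraries, per the labels' protocols. FastQC 0.11.5, STAR 2.7.0f and mm10 are named in the submitters' processing notes. Which tools counted reads and set size factors is not given in the sources used here. As a signal, the deposited file holds a normalized count per hairpin: the authors had divided reads by 1 size factor per library, and 100% of 6086 values above 0 were whole reads within 0.001, so reads were recovered. The deposited cluster number of each microRNA (unit other, no scale) was used only as described. Of 3337 entries, 2108 for mature arms were all 0, and 3 hairpin names were repeated (the higher row was used). Left unused was 1 column of values that no sample's labels match.

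limma 3.58.1 in R 4.3.3 (lmFit, eBayes with trend, two-sided) was fitted to log2(normalized count + 1) over 15 libraries and 6 group means, for 299 hairpins that reached 10 normalized counts in 2 or more libraries (98.5% to 99.6% of reads). The threshold was an adjusted p of 0.05. edgeR 4.0.16 and DESeq2 1.42.0 on recovered reads, other scalings, filters and pseudocounts, blocks and leaving out each library were alternatives. The scripts were tested on simulated data. Named were the 3 hairpins, mir-196a-1, mir-196a-2, mir-615 and, per member, the 4 most alike; mir-99a, mir-99b, mir-100 and hairpins of marker lists were also given. The members and lists were chosen with earlier results of these data known.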

Additional observations from a re-analysis of the deposited data

Results flagged for a closer look

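mir-196b in E8.5 KO had 1.58 normalized counts in replicate 1, which is 1 read, and 0 in the other 3 libraries; its distance from those libraries, relative to the range of the group, drew attention to it. With 3 libraries at 0, a single read gives the largest gap that such a comparison allows, so it carries no weight as a departure. E8.5 WT replicate 1 also had 1 read, at 1.84 normalized counts.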

How the results depend on the processing

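The call of mir-196b for E8.5 against E7.5 in WT, and those of mir-10b and mir-196b in KO, passed under each alternative run: TMM scaling, library-sum scaling, no filter, a pseudocount of 10, only the groups compared, edgeR, DESeq2, the replicate block and each left-out library. As mir-196b reached the filter only at E7.5, its passing in these runs is no independent support for a fall. Another scaling moved the median log2 fold change of all tested hairpins by up to -0.86 (E9.5 KO against WT, TMM). No sign or call changed for the 3 hairpins. With TMM, the log2 fold change in E9.5 KO against WT was 1.17 for mir-10a and 2.02 for mir-10b. A block by label code at E8.5 rests on 1 KO and 1 WT library and tests nothing. The results given next did change, and the cause was not tested. With DESeq2, mir-10a (3.22) and mir-10b (2.75) passed in E8.5 KO against WT, as did mir-10b (3.29) and mir-196b (6.21) at E9.5. The sign turned for mir-10b at E7.5 (-0.59 with DESeq2, -0.58 with edgeR) and for mir-196b at E8.5 (2.19 with DESeq2, 1.18 with edgeR).

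Leaving out 1 library at a time, the log2 fold change in E7.5 KO against WT ran from -1.45 to 1.77 for mir-10b and from -2.41 to 0.66 for mir-196b, the ends coming without E7.5 WT replicate 2 and without replicate 1. For mir-196b in E8.5 KO against WT it ran from -0.50 to 0.34. For E8.5 against E7.5 in WT it ran from -6.44 to -5.27 for mir-10a, from -8.06 to -4.84 for mir-10b and from -7.60 to -4.54 for mir-196b, and mir-10a and mir-10b did not pass without E7.5 WT replicate 1. For E9.5 KO against WT it ran from 1.31 to 3.18 for mir-10a and from 2.13 to 3.54 for mir-10b. For E9.5 against E8.5 it ran from -1.19 to 0.23 for mir-10b in WT, from -0.064 to 1.45 for mir-10b in KO, and from 1.78 to 3.58 for mir-10a in KO, which passed without E8.5 KO replicate 4.

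The number of all tested hairpins called by limma was 8, 6 and 2 for KO against WT at E7.5, E8.5 and E9.5. For E8.5 against E7.5 it was 93 in KO and 55 in WT, for E9.5 against E8.5 81 in KO and 9 in WT, and for the interaction 7. It moved by over 1.5 times as follows. With TMM scaling it was 1 at E9.5 and 4 for the interaction, and with library-sum scaling 1 and 3. With no filter it was 18 at E7.5, 8 at E9.5, 49 in KO and 4 in WT for E9.5 against E8.5, and 12 for the interaction. With a pseudocount of 10 it was 10 at E9.5, 17 for E9.5 against E8.5 in WT and 12 for the interaction. With only the groups compared, limma called 0 at E7.5 and 0 at E9.5 (16 and 92 at an unadjusted p below 0.05), 58 in KO and 83 in WT for E8.5 against E7.5, and 11 in KO and 45 in WT for E9.5 against E8.5. edgeR called 4 at E7.5, 88 for E8.5 against E7.5 in WT and 28 for E9.5 against E8.5 in WT. DESeq2 called 4, 12 and 41 for KO against WT at the 3 stages, 90 for E8.5 against E7.5 in WT and 37 for E9.5 against E8.5 in WT. With 1 library left out, it ran from 6 to 27 at E7.5, 0 to 4 at E9.5 (29 at an unadjusted p below 0.05 where it was 0), 34 to 72 for E8.5 against E7.5 in WT, 14 to 91 in KO and 1 to 19 in WT for E9.5 against E8.5, and 4 to 25 for the interaction.

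Whether the replicate numbers in the labels pair KO with WT libraries could not be told. The correlation of same-numbered deviations was -0.23 for the E7.5 numbers, 0.14, 0.13 and 0.090 for those of E8.5 and 0.19 for those of E9.5. At E7.5 and E9.5 both numbers give the same value by construction, so it cannot decide the question. Each of E8.5 KO replicates 1 to 3 correlated best with its own number. With the replicate block, 1 hairpin was called at E9.5, 1 for E9.5 against E8.5 in WT and 4 for the interaction. With the E7.5 KO numbers crossed, a choice made after seeing the data, 8 were called at E7.5. Depth limits E8.5 KO replicate 3, the shallowest library, which had 0 reads of all 3 hairpins.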
